A study of Mus musculus with 9 samples.

Results

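The genes described here are the 7 that carry out or switch on MHC class II antigen presentation: the class II chains H2-Aa, H2-Ab1 and H2-Eb1, the invariant chain Cd74, the peptide-loading chains H2-DMa and H2-DMb1, and the transactivator Ciita. They were taken by symbol, and all 7 were found among the 16367 genes of the table of sorted cells and among the 17035 genes of the table of primary cultures. Expression was measured by RNA sequencing of mouse retinal cells prepared as Müller glia, in 9 libraries from wild-type animals. The sham group (3 libraries) came from mice that had only a corneal incision. The ocular hypertension group (OHT, 3 libraries) came from mice with 1.2 µL of silicone oil in the anterior chamber of each eye, a model of chronic mild pressure elevation. In both, 4 retinas were pooled per library, dissociated with papain, freed of dead cells and captured on magnetic beads by an antibody to GLAST, a glutamate transporter found on Müller glia and on astrocytes. The labels give neither the strain and age of these mice nor the time after injection. The culture group (3 libraries) was grown without treatment from the retinas of C57BL/6J pups 8 to 10 days old and passaged in serum-containing medium.

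MHC class II molecules are pairs of an alpha and a beta chain that show peptides from endosomes to CD4+ T cells. The invariant chain holds the newly made pair and blocks its groove until endosomal proteases cut it down, and the H2-DM dimer then exchanges the remaining fragment for peptide. Ciita does not bind DNA itself. It is recruited to a conserved promoter module, the X and Y boxes, by RFX, CREB and NF-Y proteins, and interferon-gamma induces it in many cell types. In the central nervous system, class II is known mainly from dendritic cells, border macrophages and activated microglia, while glia such as Müller cells can be induced to carry it.

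The promoter windows of the members are shown because Ciita acts through this stretch. Windows of 300 bases, from 250 before to 50 after an annotated start, were matched by symbol for 4 of the 7 members in RefSeq on GRCm38.p6, a build other than the one named for the reads. Cd74, H2-Ab1 and Ciita had no entry. Each sequence runs 5′ to 3′ on the gene's coding strand. Capitals mark an X-box half-site (GNAAC, where N is any base) followed after 10 to 30 bases by a Y box (TGATTGG, which holds an inverted CCAAT box).
H2-Aa (chr17:34287774-34288073, minus strand): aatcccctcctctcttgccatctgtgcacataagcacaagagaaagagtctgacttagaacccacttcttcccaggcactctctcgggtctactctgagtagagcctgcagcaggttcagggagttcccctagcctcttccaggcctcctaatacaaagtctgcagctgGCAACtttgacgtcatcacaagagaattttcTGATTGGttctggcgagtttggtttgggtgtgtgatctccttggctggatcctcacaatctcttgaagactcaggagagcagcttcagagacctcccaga
H2-Eb1 (chr17:34305617-34305916, plus strand): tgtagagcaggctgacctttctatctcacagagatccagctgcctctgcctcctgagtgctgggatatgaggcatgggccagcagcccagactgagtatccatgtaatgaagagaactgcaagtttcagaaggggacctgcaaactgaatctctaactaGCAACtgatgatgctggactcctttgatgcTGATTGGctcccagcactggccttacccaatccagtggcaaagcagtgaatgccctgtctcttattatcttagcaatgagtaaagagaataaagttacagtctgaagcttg
H2-DMb1 (chr17:34152941-34153240, plus strand): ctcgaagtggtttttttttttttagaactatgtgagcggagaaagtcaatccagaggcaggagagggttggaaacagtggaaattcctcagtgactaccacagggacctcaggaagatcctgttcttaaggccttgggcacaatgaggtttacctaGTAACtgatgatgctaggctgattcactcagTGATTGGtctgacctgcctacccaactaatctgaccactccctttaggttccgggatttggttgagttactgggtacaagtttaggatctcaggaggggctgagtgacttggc
H2-DMa (chr17:34122582-34122881, plus strand): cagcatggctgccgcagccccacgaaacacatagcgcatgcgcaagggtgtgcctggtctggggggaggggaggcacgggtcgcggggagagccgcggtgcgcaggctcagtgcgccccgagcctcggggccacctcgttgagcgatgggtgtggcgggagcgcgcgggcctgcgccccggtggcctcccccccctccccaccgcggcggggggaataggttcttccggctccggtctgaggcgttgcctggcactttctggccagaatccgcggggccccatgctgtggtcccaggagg
The pair of motifs lay on the coding strand in the windows of H2-Aa, H2-Eb1 and H2-DMb1. The half-site began at -81, -91 and -94 and the Y box at -50, -61 and -63 from the start, with 26, 25 and 26 bases between them. No such pair was found in this window of H2-DMa or in a second one at another annotated start, which says only that these letters are not in those windows. Of 32851 windows of this length in the mouse, 0.581% held the pair on either strand and 0.274% on the coding strand, 84.8% held the half-site and 7.82% the Y box, paired or not. Of 29 other genes of the presentation lists with a window, 3 held it, and these were the class II genes H2-Eb2, H2-Oa and H2-Ob. The window of H2-DMb2, also a class II gene, did not hold the pair. The letters and the spacing were chosen after the windows had been read.

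Depth was 37.8 to 53.6 M reads in the sorted libraries and 66.3 to 76.7 M in the cultures, where M is 1e6, and the OHT libraries were deeper than the sham libraries without overlap. Levels are given in ppm, the reads of a gene per 1e6 reads of its library, which are not corrected for gene length. The sorted libraries were not pure Müller glia by their markers. A list of 10 Müller genes summed to 1708 to 8149 ppm, and 11 microglial genes that could be read of 12 listed summed to 11743 to 24766 ppm and lay above the Müller list in every sorted library. In bulk samples, more cells of a type and more RNA per cell cannot be told apart.

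Cd74, the invariant chain, was among the most abundant transcripts of the sorted cells. It stood at 4033, 5088 and 22386 ppm in sham replicates 1, 2 and 3, and at 17481, 15532 and 16028 ppm in the OHT replicates. Sham replicates 1 and 2 were low, while sham replicate 3 was the highest of all 6 libraries in ppm, so the groups overlapped through that library. The group means were 10503 ± 10305 ppm in sham and 16347 ± 1013 ppm in OHT (SD, n = 3 each). In the deposited normalised counts the group means were 436775 ± 447200 in sham and 813607 ± 294203 in OHT. There OHT replicate 1 was highest, at 1.15e+06, against 952572 in sham replicate 3, and the groups still overlapped. In these counts 1 read stood for 1.38 in OHT replicate 1 and for 0.80 to 1.03 in the other sorted libraries. The rank of Cd74 by reads was 28, 16 and 3 in the sham libraries and 5, 3 and 2 in the OHT libraries.

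The class II chains were likewise low in sham replicates 1 and 2. H2-Ab1, the beta chain of the I-A molecule, was at 1040, 1428 and 6185 ppm in sham and at 6837, 4079 and 4777 ppm in OHT. H2-Aa, its alpha chain, was at 417, 557 and 2494 ppm in sham and at 3334, 1726 and 1553 ppm in OHT. H2-Eb1, the beta chain of the I-E molecule, was at 344, 440 and 1953 ppm in sham and at 2324, 1326 and 1174 ppm in OHT. For all 3 chains, sham replicates 1 and 2 were the lowest libraries, OHT replicate 1 was the highest, and sham replicate 3 lay inside the OHT range. The means in sham and OHT were 2884 ± 2865 and 5231 ± 1434 ppm for H2-Ab1, 1156 ± 1161 and 2205 ± 982 ppm for H2-Aa, and 912 ± 903 and 1608 ± 624 ppm for H2-Eb1 (SD, n = 3). Sham replicate 3 held 4.91 times the mean of the other sham libraries for Cd74, 5.12 times for H2-Aa, 5.01 times for H2-Ab1 and 4.98 times for H2-Eb1.

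The peptide-loading chains varied much less. H2-DMa was at 324, 196 and 297 ppm in sham and at 436, 330 and 374 ppm in OHT, so every OHT library lay above every sham library. H2-DMb1 was at 192, 166 and 308 ppm in sham and at 344, 315 and 271 ppm in OHT, where OHT replicate 3 was below sham replicate 3. The means in sham and OHT were 272 ± 67.6 and 380 ± 53.2 ppm for H2-DMa and 222 ± 75.7 and 310.0 ± 36.7 ppm for H2-DMb1 (SD, n = 3). Their whole range over the 6 sorted libraries was 2.23-fold and 2.08-fold, against 5.55-fold for Cd74 and 6.57-fold to 8.00-fold for the chains. Sham replicate 3 was 1.14 times the mean of the other sham libraries for H2-DMa and 1.72 times for H2-DMb1. In the GENCODE M21 transcripts, 19.1% of the 75-base words of H2-DMb1 also occur in its neighbour H2-DMb2, and the rule by which such reads were counted is not known here. The other 6 members shared no such word with another gene.

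Ciita, the transactivator, was low and had the widest range of the 7, at 15.0-fold. It was at 1.61, 1.41 and 13.9 ppm in sham and at 3.19, 10.2 and 21.0 ppm in OHT. Sham replicates 1 and 2 were again lowest and sham replicate 3 again lay inside the OHT range. Within OHT the libraries were ordered differently from the chains, since OHT replicate 1 had the lowest Ciita and the highest H2-Aa, H2-Ab1 and H2-Eb1. In sham replicates 1 and 2 the value rests on 61 and 60 reads.

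**Figure D1:**
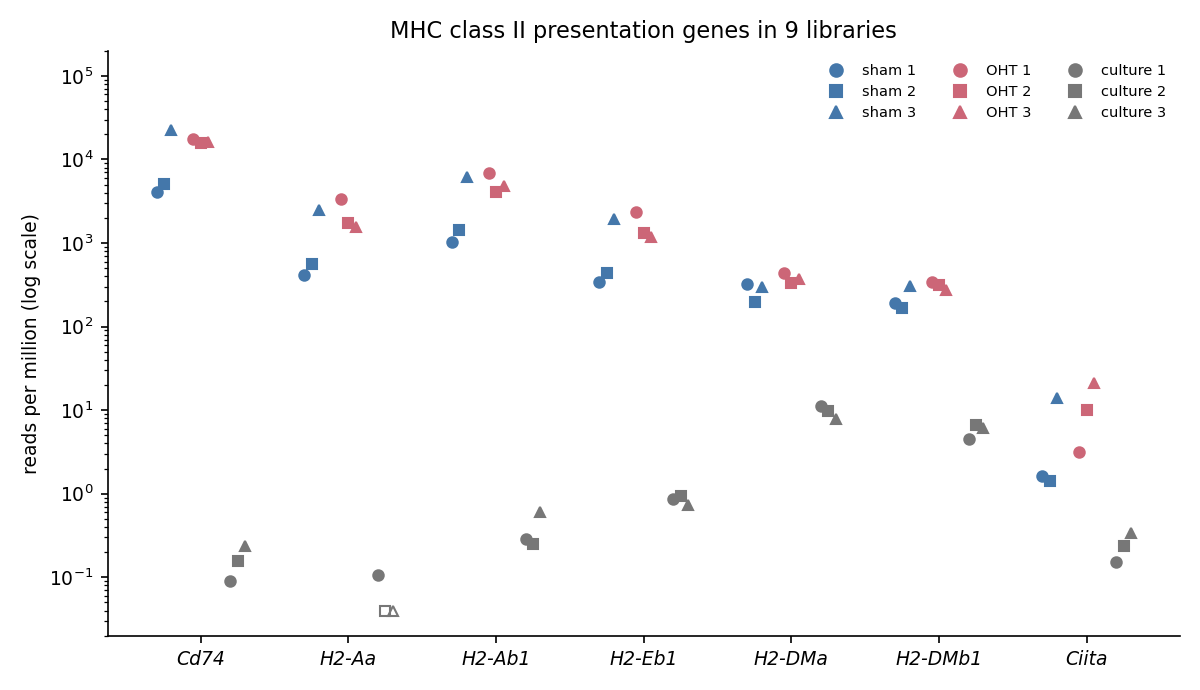
Level of each gene in ppm on a log scale, with 1 point per library, coloured by group and shaped by replicate number; open symbols mark the 2 cultures with no H2-Aa read, drawn at the level of 3 reads. Sham replicate 3 lies with the OHT libraries for Cd74 and the chains, and the cultures keep H2-DMa at 7.79 to 11.4 ppm while Cd74 is at 0.235 ppm or less.

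Per length, with ppm divided by the length in kb of the longest transcript matched to RefSeq in GENCODE M21, the median level over the 6 sorted libraries was highest for Cd74 (11191 ppm per kb), then H2-Ab1 (3653), H2-Aa (1454), H2-Eb1 (749), H2-DMb1 (206), H2-DMa (197) and Ciita (1.11). The 2 H2-DM genes do not differ beyond their spread (118 to 245 and 118 to 263 ppm per kb). The ranges of neighbours above them also overlap across libraries, from 2860 to 15877 for Cd74 and 858 to 5641 for H2-Ab1, but within each library Cd74 was above H2-Ab1, H2-Ab1 above H2-Aa and H2-Aa above H2-Eb1. All 7 genes together took 0.635%, 0.788% and 3.36% of the sham reads and 3.08%, 2.33% and 2.42% of the OHT reads.

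The comparison of OHT with sham asks which transcripts of the captured cells differ under raised eye pressure. All 7 genes were higher on average in OHT, and none passed the threshold. Differences are log2(value + 1) of the deposited normalised counts, tested with limma over 14403 genes with a mean of at least 10 and adjusted by the Benjamini-Hochberg method over all of them. With the threshold at an adjusted p of 0.05, limma called 0% of all genes (0 of 14403) and 0 of the 7 members. At an unadjusted p under 0.05 it picked 1680 genes over both directions, 773 higher and 907 lower in OHT. The higher ones were 5.37% of all genes and held 3 of the 7 members (H2-Aa, H2-Ab1 and H2-Eb1, with unadjusted limma p-values of 0.0424, 0.0412 and 0.0495). edgeR on the recovered reads called 0 (1575 before adjustment), and DESeq2 called 1.74% of all genes and 0 members. The log2 difference was 1.33 (SE 0.69, adjusted p 0.468) for Cd74, 1.56 (SE 0.68, adjusted p 0.417) for H2-Aa and 1.53 (SE 0.67, adjusted p 0.414) for H2-Ab1. It was 1.45 (SE 0.66, adjusted p 0.427) for H2-Eb1 and 1.72 (SE 0.97, adjusted p 0.498) for Ciita. The loading chains had smaller differences with smaller errors, at 0.75 (SE 0.38, adjusted p 0.461) for H2-DMa and 0.77 (SE 0.39, adjusted p 0.466) for H2-DMb1.

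The median difference of the 7 was 1.45, against -0.12 over all genes tested, of which 45.2% were above 0. A difference of at least 1 was reached by 5 of the 7 and by 9.75% of all genes. H2-DMa was the only member whose groups did not overlap in this direction, 1 of 7, where 9.26% of all genes had every OHT library above every sham library. After quantile normalization 0 members had groups that did not overlap, beside 9.47% of all genes. Without OHT replicate 3 there were 2, H2-DMa and H2-DMb1, beside 16.2% of all genes. The median of all genes moved with the scaling, to -0.16 with TMM factors, 0.01 after quantile normalization and -0.36 in ppm. The 7 members stayed above 0 under each of these, with medians of 1.42, 1.15 and 1.20.

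Of the 6 libraries, sham replicate 3 moved the differences of Cd74, the 3 chains and Ciita most, and OHT replicate 1 that of H2-DMa. Without sham replicate 3 the log2 difference was 2.14 for Cd74, 2.39 for H2-Aa, 2.36 for H2-Ab1, 2.27 for H2-Eb1, 1.08 for H2-DMb1, 0.87 for H2-DMa and 2.82 for Ciita. All 7 members then had groups that did not overlap, where 12.9% of all genes did in this direction. All members but H2-DMa had overlapped through that library alone, so leaving it out fixed this count. Still, limma called 0 of the 7 without that library and 0.0486% of all genes, with adjusted p-values of the members between 0.462 and 0.736. Leaving out OHT replicate 1 lowered the chains to 0.99 for H2-Aa, 1.09 for H2-Ab1 and 0.92 for H2-Eb1. It lowered the loading chains to 0.42 for H2-DMa and 0.47 for H2-DMb1. Without sham replicate 1 limma called 0.0833% of all genes and 0 members, and the difference was 0.84 for Cd74, 1.04 for H2-Aa, 1.01 for H2-Ab1 and 0.95 for H2-Eb1. Without sham replicate 2 it was 1.12 for Ciita.

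**Figure D2:**
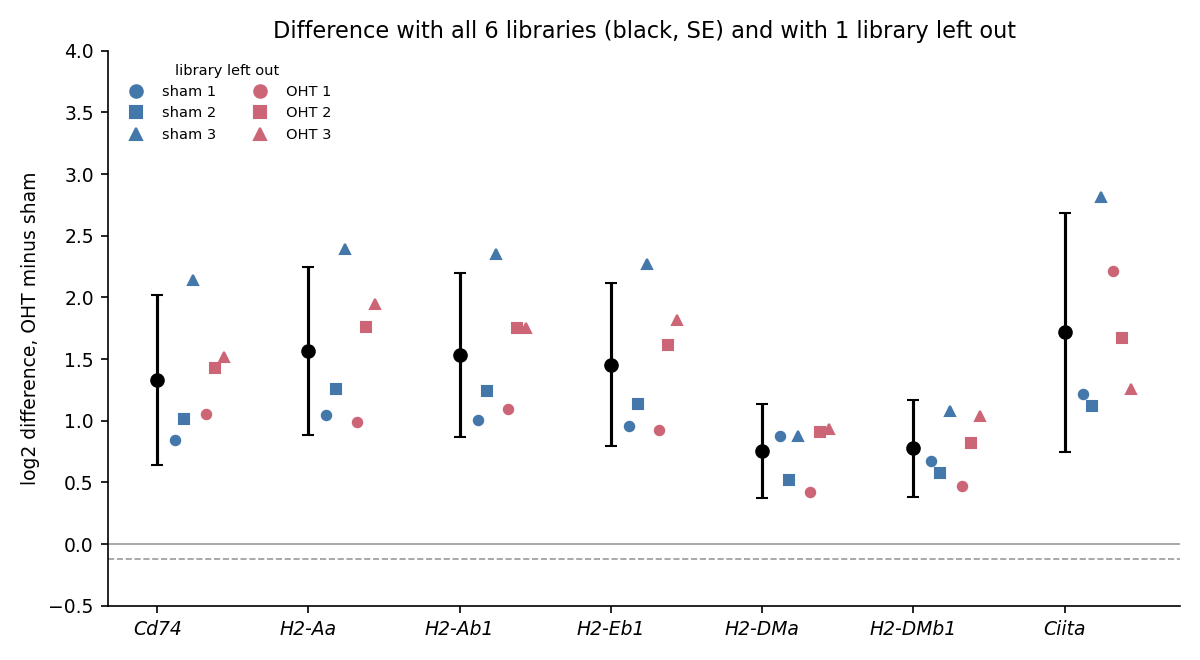
Log2 difference between OHT and sham for each gene, with all 6 libraries (black, bars are SE) and with 1 library left out (coloured by the group and shaped by the number of the library left out); the dashed line is the median of all genes at -0.12. The points without sham replicate 3 reach 2.14 to 2.82 for Cd74, the chains and Ciita, and every point lies above 0.

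Set against each other within a library, the chains kept a nearly fixed ratio to the invariant chain except in OHT replicate 1. H2-Ab1 had 25.8, 28.1 and 27.6 reads per 100 Cd74 reads in sham and 39.1, 26.3 and 29.8 in OHT. H2-Aa had 10.3, 10.9 and 11.1 in sham and 19.1, 11.1 and 9.69 in OHT. H2-Eb1 had 8.52, 8.65 and 8.72 in sham and 13.3, 8.54 and 7.33 in OHT. Sham replicate 3, for all its high level, had ratios close to those of the low sham libraries, while OHT replicate 1 stood apart with more chain reads for its Cd74. H2-DMa did not keep its ratio, with 8.03, 3.85 and 1.33 reads per 100 Cd74 reads in sham and 2.50, 2.13 and 2.33 in OHT. The ratio of H2-DMa to its partner H2-DMb1 was between 0.965 and 1.68.

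Relative to microglial transcripts the sham libraries lay farther apart. Cd74 had 0.163, 0.287 and 1.91 reads per read of the 11 microglial genes in sham and 0.987, 0.838 and 0.951 in OHT. In ppm, sham replicate 3 had the lowest microglial sum of all 6 libraries, 11743, and the highest Cd74. The microglial sums of sham (11743 to 24766 ppm) and OHT (16858 to 18527 ppm) overlapped. H2-Ab1 followed, at 0.0420, 0.0806 and 0.527 in sham and 0.386, 0.220 and 0.283 in OHT. With the microglial list entered as a covariate, limma gave 1.66 for Cd74, 1.78 for H2-Aa, 1.82 for H2-Ab1, 1.67 for H2-Eb1 and 2.55 for Ciita, all above the values without it. It gave 0.58 for H2-DMa and 0.75 for H2-DMb1, below them, and called 0 genes (1098 at an unadjusted p under 0.05).

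**Figure D3:**
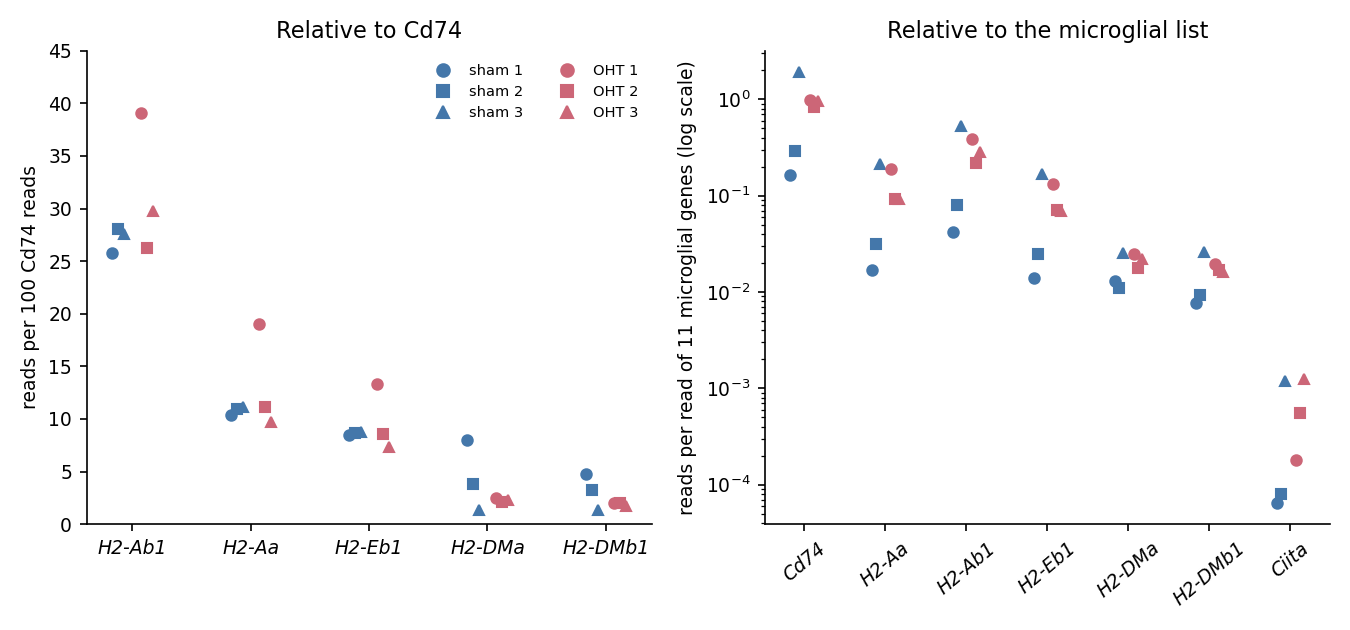
Left, reads of each chain per 100 Cd74 reads in the same library; right, reads of each gene per read of 11 microglial genes, on a log scale; 1 point per sorted library, coloured by group and shaped by replicate number. OHT replicate 1 stands apart on the left, at 39.1 for H2-Ab1 against 25.8 to 29.8 elsewhere, and sham replicate 3 is the highest for Cd74 on the right, at 1.91.

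Markers of other cells that carry class II were also uneven, and their part in the result was not tested. The 10 border macrophage and monocyte genes summed to 557, 573 and 1095 ppm in sham and to 1166 to 2121 ppm in OHT. The separation rests on 1 gene of the list, Ms4a7, a macrophage gene, which was at 125, 117 and 519 ppm in sham and 871 to 1474 ppm in OHT. Without Ms4a7, left out after its values were seen, the other 9 genes summed to 432, 456 and 576 ppm in sham and to 648, 295 and 990 ppm in OHT, so the groups overlapped and OHT replicate 2 was lowest. The median log2 difference of the 10 was 0.33, with 7 above 0. Ccr2, the receptor that marks recruited monocytes, was at 1.40, 1.88 and 36.2 ppm in sham and 9.09, 35.0 and 33.7 ppm in OHT. The log2 differences below 0 were those of the border macrophage genes Cd163 (-0.03, SE 0.49) and Lyve1 (-0.20, SE 0.52) and the monocyte gene Ly6c2 (-0.82, SE 1.63). Above 0 were Ms4a7 (2.68, SE 0.60), Ccr2 (2.51, SE 1.07), Pf4 (1.05, SE 0.59) and Plac8 (0.73, SE 0.99). Mrc1 (0.56, SE 0.45), F13a1 (0.11, SE 0.43) and Cbr2 (0.01, SE 0.73) were also above 0. The 10 dendritic cell genes summed to 55.9, 35.0 and 90.0 ppm in sham and to 89.7 to 114 ppm in OHT. The largest part in every library was Itgax, which microglia can also carry, at 30.3, 16.7 and 55.3 ppm in sham and 51.9, 86.0 and 59.5 ppm in OHT. Of the 10 genes, 5 were at 0 in at least 1 sorted library. The defining dendritic genes Flt3, Xcr1 and Clec9a were at 3.42 ppm or less in each library, and Clec9a was at 0 in 2 of the 6. Across the dendritic list the median log2 difference was 0.53, with 6 genes above 0 and 4 below. Highest was Cd209a (3.60, SE 1.83), at 0, 0 and 1.17 ppm in sham and 0.231, 0.970 and 3.33 ppm in OHT. Next came Ccr7 (3.43, SE 1.74), at 0.344, 0 and 4.05 ppm in sham and 0.609, 3.58 and 12.6 ppm in OHT. The groups of both overlapped. Xcr1 (-3.16, SE 1.51) was lower in every OHT library than in every sham library, 1 of 10 in its list. Over all genes, 1322 of 14403 were lower in this way. Xcr1 had 70, 99 and 119 reads in sham and 32, 28 and 0 in OHT. The B cell list could be read for 5 of 6 genes and its sum overlapped (346 to 495 ppm in sham, 333 to 601 ppm in OHT). Its largest part was Ighm, at 260 to 551 ppm.

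T cell genes were scarce but not evenly spread. The list of 6 genes summed to 5.13, 7.03 and 14.5 ppm in sham and to 1.87, 16.7 and 8.51 ppm in OHT. Cd3e, a subunit of the T cell receptor complex, had 99 reads in sham replicate 3, 6 in OHT replicate 1 and 0 in the other 4 sorted libraries. Cd8a had 23 reads and Cd3d 10 in sham replicate 3 and 0 in each of the other 5. Ifng, the cytokine that induces Ciita, had 108 reads in sham replicate 3, 12 in OHT replicate 2 and 0 elsewhere. The level of 3 reads was 0.0793 ppm or less in these libraries, and a count of 0 does not exclude a low level. Other T cell genes peaked elsewhere, with Lck highest in sham replicate 2 (4.88 ppm, against 2.68 ppm in sham replicate 3) and Cd4 highest in OHT replicate 2 (14.5 ppm, against 7.44 ppm). The part of these transcripts in the class II levels was not tested, and Cd3e, Cd3d, Cd8a and Ifng were singled out after their values were seen.

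Markers of retinal cells were lower on average in OHT, with median log2 differences of -0.84 for the Müller list, -2.32 for the rod list and -1.78 for the astrocyte list and 0 genes past the limma threshold. Their part in the result was not tested either. The Müller list summed to 3390, 8149 and 3218 ppm in sham and 1725, 1708 and 3787 ppm in OHT, and the 12 rod genes to 2850, 27336 and 22030 ppm in sham and 975 to 3575 ppm in OHT. The astrocyte list of 5 genes summed to 15.4, 657 and 1245 ppm in sham and 56.4 to 100.3 ppm in OHT. With the rod list entered as a covariate the differences were 2.21 (SE 0.93) for Cd74, 2.42 (SE 0.95) for H2-Aa and 2.50 (SE 0.90) for H2-Ab1. They were 2.26 (SE 0.92) for H2-Eb1, 2.94 (SE 1.45) for Ciita, 0.44 (SE 0.58) for H2-DMa and 0.81 (SE 0.62) for H2-DMb1. This fit called 0 genes (444 at an unadjusted p under 0.05), and each limma adjusted p of the 7 was 0.999. The rod list was itself lower on average in OHT, so the fit separates list and group poorly.

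The primary cultures had nearly no invariant chain or class II chains, yet H2-DMa and H2-DMb1 were read clearly. The tables were normalised separately, so no test was made between cultures and sorted cells. Cd74 was at 0.0905, 0.159 and 0.235 ppm in the cultures, from 6, 12 and 18 reads, and the exact 95% binomial intervals reached from 0.0332 to 0.371 ppm. H2-Aa had 7 reads in culture replicate 1 (0.106 ppm, exact interval 0.0424 to 0.218) and 0 in the other 2. The exact upper bounds of those 2 were 0.0488 and 0.0481 ppm, and the level of 3 reads was 0.0397 and 0.0391 ppm. H2-Ab1 was at 0.287, 0.251 and 0.599 ppm. H2-Eb1 was at 0.860, 0.939 and 0.730 ppm, with 3.00, 3.74 and 1.22 H2-Eb1 reads per H2-Ab1 read, against 0.246 to 0.340 in the sorted libraries. Per kb the culture medians were 0.515 ppm for H2-Eb1 and 0.236 ppm for H2-Ab1. The intervals and limits take in counting error alone, because the reads were amplified and carry no molecular identifier.

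The loading chains and the transactivator were less far apart between cultures and sorted cells. H2-DMa was at 11.4, 9.83 and 7.79 ppm in the cultures, from 598 to 753 reads, and H2-DMb1 at 4.51, 6.70 and 6.09 ppm. H2-DMb2, which shares words with H2-DMb1, was at 0.0603 ppm or less there. Ciita was at 0.151, 0.238 and 0.339 ppm, from 10, 18 and 26 reads. The lowest sorted library exceeded the highest culture 17196-fold for Cd74, 3950-fold for H2-Aa, 1735-fold for H2-Ab1 and 366-fold for H2-Eb1. For H2-DMa this ratio was 17.2, for H2-DMb1 24.7 and for Ciita 4.15. By their markers the cultures also differed from the sorted cells: the Müller list summed to 230 to 393 ppm, the microglial list (10 genes read) to 94.1 to 138 ppm, and Itgax was at 0 in all 3.

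The other genes of the presentation pathway were read from lists of class II chains, promoter factors, endosomal enzymes, ubiquitin ligases, interferon-gamma signalling and co-stimulation. None of them passed the limma threshold in either direction. Of the endosomal list, 8 of 8 genes had a difference above 0 (median 0.84), and 5 of the 8 had every OHT library above every sham library, beside 9.26% of all genes. These were Ctsb (1.31, SE 0.50), Ctsh (1.08, SE 0.37), Ctss (0.94, SE 0.56), which cuts the invariant chain, Ifi30 (0.92, SE 0.39), a thiol reductase, and Ctsl (0.76, SE 0.33). Their limma adjusted p-values were between 0.343 and 0.511. Without OHT replicate 3 the count was 8 of 8, beside 16.2% of all genes. In ppm the groups of 3 of the 8, Ctsb, Ctsh and Ctsl, did not overlap, beside 5.44% of all genes. Those of Ctss and Ifi30 overlapped in ppm, with Ifi30 at 51.1 in sham replicate 1 and 48.3 in OHT replicate 1. Ctsb was at 5054, 4133 and 9592 ppm in sham, high in replicate 3, and at 9943, 14261 and 12799 ppm in OHT. Ctss was at 15418, 9154 and 10177 ppm in sham, highest in replicate 1, and at 22891, 14992 and 17775 ppm in OHT, so it did not share the order of Cd74. Of the 11 microglial genes, 2 had every OHT library above every sham library, beside 9.26% of all genes. Without sham replicate 1 the count was 4, beside 16.1% of all genes. The median difference of the 11 was 0.29.

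Of the remaining class II genes, 3 had small differences and the fourth was barely read. H2-DMb2 was at 14.8 to 23.6 ppm in sham and 15.6 to 18.3 ppm in OHT, and its log2 difference was 0.11 (SE 0.47). H2-Oa and H2-Ob, the chains of the dimer that inhibits H2-DM, had differences of 0.11 (SE 0.49) and 0.21 (SE 0.42). H2-Eb2 was at 0.634, 0 and 0.180 ppm in sham and at 1.05, 0.0933 and 0.191 ppm in OHT, from 50 reads or fewer, with a difference of 1.24 (SE 1.80). Of the 5 genes listed here, 4 could be read in the sorted libraries. H2-Ea, the alpha chain that pairs with H2-Eb1, had no entry, so its level is not known here. The median of the 4 genes of this list was 0.16.

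The factors that act on the class II promoter had a median difference of 0.01, with 4 of 7 above 0 and a range from -0.72 for Nfyc to 0.62 for Rfxank. In the interferon-gamma list the median was 0.06 and 4 of 8 were above 0. Ifngr1, a receptor subunit, had groups that did not overlap in deposited values (log2 difference 0.55, SE 0.33). It was 1 of 8 in its list, beside 9.26% of all genes. The count was 2 without sham replicate 3, OHT replicate 2 or OHT replicate 3, beside 12.9%, 18% and 16.2% of all genes. In ppm the groups of Ifngr1 did overlap, at 447 to 559 in sham and 520 to 745 in OHT. Irf1, a transcription factor that acts on Ciita, was at -0.13 (SE 0.38). Of the co-stimulation list, 5 of 6 were above 0 (median 0.70), beside 45.2% of all genes, and 2 were higher without overlap, beside 9.26%. Cd86, a ligand of CD28, was at 240 to 302 ppm in sham and 324 to 458 ppm in OHT (0.73, SE 0.32, limma adjusted p 0.413). Pdcd1lg2, a ligand of PD-1, was at 0, 0 and 0.202 ppm in sham and at 0.399, 0.504 and 1.91 ppm in OHT, from 90 reads or fewer (limma adjusted p 0.385). The ubiquitin ligases that remove class II from the surface were split, with Marchf1 at 0.46 (SE 0.34) and Marchf8 at -0.73 (SE 0.60).

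**Figure D4:**
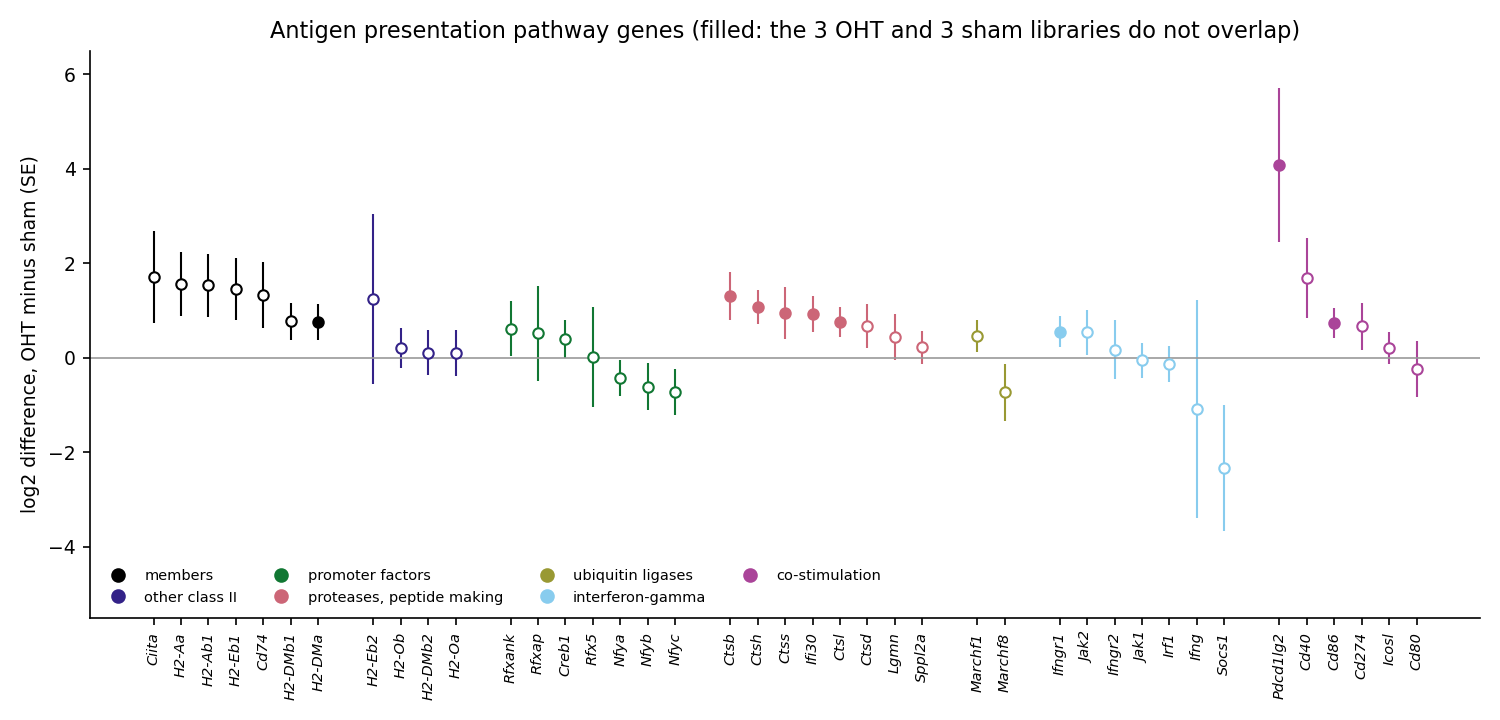
Log2 difference between OHT and sham with its SE for the members and for genes of 6 pathway lists, ordered within each list; filled points mark genes whose 3 OHT and 3 sham libraries do not overlap in deposited values. The members and the endosomal list lie above 0, while the other class II genes H2-Ob, H2-DMb2 and H2-Oa lie near 0.

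The genes whose profile over the 6 sorted libraries was most like the mean profile of Cd74, H2-Aa, H2-Ab1 and H2-Eb1 were Cxcr4, a chemokine receptor, Plxnc1, a semaphorin receptor, Cd40, a co-stimulatory receptor, Ecm1 and Pla2g7. Likeness was the root mean square distance of centred log2(value + 1) over 6 libraries, among 11532 genes with a mean of at least 100, and it was 0.24, 0.29, 0.31, 0.32 and 0.33. The 4 genes that made the mean were themselves at 0.08 to 0.19, while H2-DMb1 was at 0.67, H2-DMa at 0.86 and Ciita at 1.06. Cxcr4 was at 2.14, 3.02 and 9.69 ppm in sham and at 12.4, 11.6 and 8.83 ppm in OHT. Cd40 was at 3.23, 3.66 and 18.9 ppm in sham and at 32.8, 13.1 and 10.5 ppm in OHT. Both were lowest in sham replicates 1 and 2 and highest in OHT replicate 1. These genes were selected for their closeness, so the distances describe the selection.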

How the data were processed

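Per the submitters' processing notes, the tools were bcl2fastq 2.20, Trim Galore 0.6.6, FastQC 0.11.9 and STAR 2.7.1a, with the build mm39. The counting program, gene annotation and normalization method were not given in the sources used here. Per the labels' protocols, cDNA was amplified with a low-input kit and sequenced as paired 150 bp reads. The deposited signal is 1 normalised read count per gene and library, that is a count divided by 1 factor per library: 100% of values were whole multiples of the smallest step of their column (tolerance 0.05 reads), though the step of culture replicate 3 is too close to 1 to show this independently. All columns of values belonged to a sample.

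OHT and sham were compared with limma 3.58.1 (R 4.3.3; trend, no covariate) on log2(value + 1), with a filter on the mean of 10. The 2 tables were not tested against each other. Alternatives were pseudocounts, filters, scalings, array weights, a replicate block, covariates, each library left out, and edgeR 4.0.16 and DESeq2 1.42.0 on recovered reads. Scaling by total reads, the median transcript length, the counts of list genes under alternatives and the sum without Ms4a7 were added after seeing the data. The test was tried on simulated data. No label says that libraries of a group came from separate animals beyond the pools, so p-values measure the spread between these libraries.

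The members and lists were chosen with earlier results of these data known. Named were the 7 members, list genes past the threshold or, with none, those whose groups did not overlap, markers needed beside a result, and the 5 nearest profiles; other names were chosen after their values were seen. Lists held class II genes, promoter factors, endosomal enzymes, ubiquitin ligases, interferon-gamma signalling, co-stimulation, and markers of microglia, border macrophages and monocytes, dendritic, B, T, Müller, astrocyte, rod and endothelial cells. The 6 endothelial genes summed to 216 to 458 ppm in sham and 108 to 203 ppm in OHT. A few list genes are not reported by name here. Figures used Python 3.11.15 and matplotlib 3.10.9.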

Additional observations from a re-analysis of the deposited data

How the results depend on the processing

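Under 20 alternatives each, all 7 members kept a log2 difference above 0 and none passed an adjusted p of 0.05. The ranges were 0.80 to 2.21 for Cd74, 0.91 to 2.42 for H2-Aa, 0.94 to 2.50 for H2-Ab1, 0.84 to 2.27 for H2-Eb1, 0.34 to 0.93 for H2-DMa, 0.39 to 1.08 for H2-DMb1 and 0.96 to 2.94 for Ciita. In the fit with array weights, OHT replicate 1 had the lowest weight, at 0.273. There the difference was 0.85 for Cd74, 0.91 for H2-Aa, 0.94 for H2-Ab1 and 0.84 for H2-Eb1. The smallest adjusted p of any member was 0.310, for H2-Ab1 without OHT replicate 2 (limma). The count of all genes past the threshold was 0 with limma and became 250 with DESeq2 and 2 with the replicate block. Leaving out 1 library gave 0 to 12 genes, with 12 without sham replicate 1 and 7 without sham replicate 3; the cause was not tested. The count of members past the threshold was 0 throughout, also with 1 library left out.

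The count of members whose groups do not overlap was 1, became 0 after quantile normalization, and ranged from 1 to 7 when 1 library was left out, with 7 without sham replicate 3 and 2 without OHT replicate 3. Over all genes, 50.2% of those that did not overlap were higher in OHT with the deposited scaling and 32.2% in ppm. Same-numbered sham and OHT libraries did not deviate together (Pearson r of 0.06, -0.05 and -0.06 across 11532 genes). Not every sham library correlated best with its own number. With 3 libraries per group, these correlations cannot settle whether the numbers pair the libraries. With the replicate block 5 members had an unadjusted limma p under 0.05, against 3 without it, beside 1809 and 1680 of all genes. Without the 20 highest genes in the total, levels were multiplied by 1.29 to 1.41 in the sorted groups and 1.12 to 1.13 in the cultures. Depth limits Ciita in sham replicates 1 and 2 and Cd74, H2-Aa and Ciita in the cultures.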
